A study of Mus musculus with 158 samples.

Results

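The postsynaptic scaffold and synaptic adhesion genes described here are 30 genes chosen by symbol: Dlg1 to Dlg4, Dlgap1 to Dlgap4, Shank1 to Shank3, Homer1 to Homer3, Camk2a, Camk2b, Camk2d, Camk2g, Nrgn, Ddn, Kalrn, Ppp1ca, Nlgn1 to Nlgn3, Lrrtm1, Lrrtm2, Nrxn2, Nrxn3 and Gphn. All 30 had a row among the 21956 gene rows of the mouse count table. The RNA of single mouse brain cells, each drawn up with a patch pipette and none treated, was amplified in 3 rounds as antisense RNA and sequenced from poly(A) RNA. There were 5 CA3, 15 CA1 and 22 cortical neurons from acute slices, and, from primary culture, 8 hippocampal neurons, 13 cortical neurons and 86 cortical astrocytes. CA1 and CA3 are fields of the hippocampus. All slice cells, the cultured cortical neurons (6, 10, 13 or 15 days in culture) and the astrocytes of 12, 14 and 15 days came from C57/BL6/N mice, while the hippocampal cultures (15 days) and the astrocytes of 7 days carried the strain name C57/BL6. The slice cortical neurons have titles starting with P (16 cells) or F (5 cells), letters that the labels do not explain, and 1 has another title. No age of the animals is given, and no animal or culture is named, which makes each group a single sample, and differences are therefore given without a test.

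At an excitatory synapse the postsynaptic density is built in layers. Membrane-associated guanylate kinases encoded by the Dlg genes (Dlg4 encodes PSD-95) hold receptors and adhesion proteins at the membrane, Dlgap proteins link them to the Shank scaffolds, and Homer proteins tie Shank to metabotropic receptors and calcium stores. Calcium entering the spine acts on CaMKII, the kinase encoded by the Camk2 genes, and on calmodulin, which neurogranin (Nrgn) binds. Neuroligins (Nlgn) and Lrrtm proteins of the postsynaptic side bind presynaptic neurexins (Nrxn) across the cleft, and at inhibitory synapses gephyrin (Gphn) takes the place of the Dlg scaffold together with neuroligin 2 (Nlgn2). The mRNAs of Camk2a, Nrgn, Ddn, Shank1 and Dlgap3 are known to be carried into dendrites.

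Library totals ran from 535369 to 38680739 counts. Levels are counts summed over a group per 1000000 counts of the group's total (CPM), with exact Poisson 95% intervals in parentheses. A gene is called detected in a cell that holds at least 5 of its counts after thinning to 1000000 counts, with Clopper-Pearson 95% intervals, and 1 CA1 cell below that depth is missing from these shares. Both kinds of interval cover counting error only, since reads are not independent molecules and cells differ by more. A gene is called higher or lower in a comparison when the log2 ratio of summed CPM plus 1 and that of the mean of the cells' CPM plus 1 are both at least 1 in size, detection differs in the same direction and 1 group has at least 10 CPM. These calls describe size and are not tests. In the comparisons, the share of all measured genes called by the same rule stands beside each count of members with all cells kept.

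The labels were set against marker genes. Of 17 neuron markers, the median cell had 10 detected in CA3, 10.5 in CA1, 9 in slice cortex, 17 in cultured hippocampal and 12 in cultured cortical neurons, against 3.5 in astrocytes. In 82 of 86 astrocytes a larger share of astrocyte than of neuron markers was detected, and the same was true of 3 of 22 slice cortical and 3 of 13 cultured cortical neurons. Gad1, a GABA-synthesis gene, was detected in all 8 cultured hippocampal neurons and all 5 F cells, in 2 of 16 P cells, 4 of 14 CA1 and 0 of 5 CA3 neurons. At least 3 of 12 microglia markers were detected in 1 of 5 CA3, 8 of 14 CA1, 8 of 16 P, 0 of 5 F, 0 of 8 cultured hippocampal, 3 of 13 cultured cortical neurons and 11 of 86 astrocytes. In 6 P cells and 2 CA1 cells fewer than 1000 genes were detected, and the weakest, P27, had 313 genes and 0 members detected.

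Together the 30 members took 6098 CPM of the counts in CA3, 7247 in CA1 and 6929.9 in slice cortical neurons, 3861 in cultured hippocampal and 2361 in cultured cortical neurons, and 954 CPM in astrocytes. The median cell had 12 members detected in CA3 (8 to 13), 10.5 in CA1 (6 to 17), 11 in slice cortex (0 to 20), 23.5 in cultured hippocampal (17 to 27), 12 in cultured cortical neurons (1 to 22) and 9 in astrocytes (0 to 16). The number of members followed the number of all genes detected in a cell. Its Pearson correlation was 0.73 across 14 CA1, 0.90 across 22 slice cortical, 0.67 across 8 cultured hippocampal, 0.85 across 13 cultured cortical neurons and 0.86 across 86 astrocytes, as a description, both numbers coming from the same libraries. Per 1000 genes detected, the median cell had 6.01 members in CA3, 6.29 in CA1, 5.18 in slice cortex, 3.08 and 3.12 in cultured hippocampal and cultured cortical neurons and 1.65 in astrocytes. Every CA3 and CA1 cell lay above every astrocyte in this ratio (lowest 3.65 and 3.44 against a highest of 2.71), while the ranges of the other groups overlapped those of the astrocytes.

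**Figure D1:**
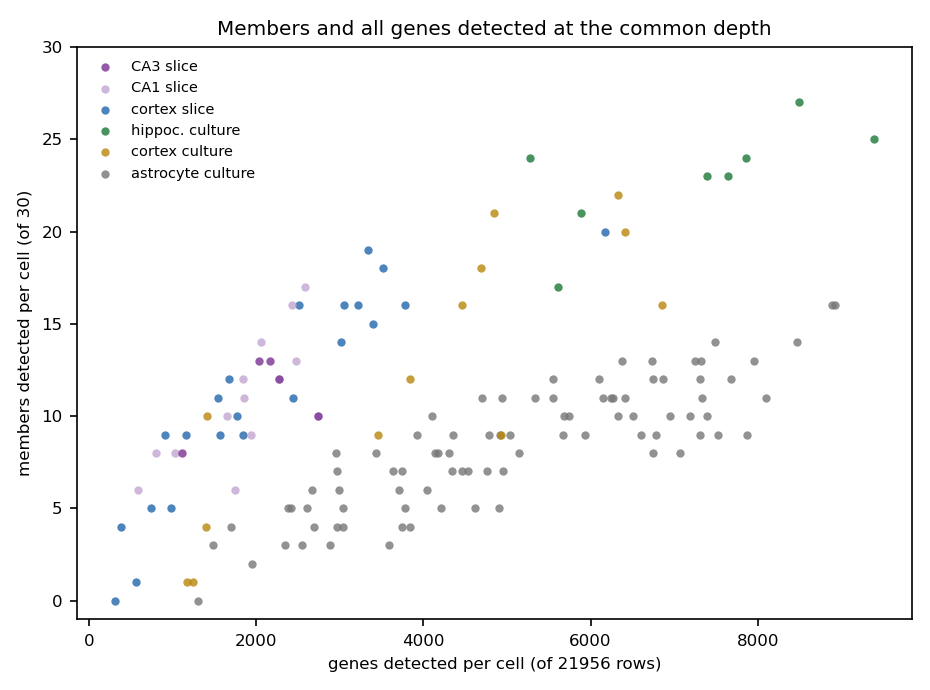
Members detected per cell (of 30, y axis) against all genes detected per cell (x axis) at 1000000 counts, 1 point per cell and 1 colour per group. Slice neurons cluster at few genes and the cultured hippocampal neurons at many genes and 17 to 27 members, while astrocytes reach at most 16 members.

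Detection differed between members. Dlgap1, which encodes a Dlg-binding scaffold, was detected in 3 of 5 CA3, 13 of 14 CA1, 17 of 22 slice cortical, 8 of 8 cultured hippocampal and 8 of 13 cultured cortical neurons, and in 38 of 86 astrocytes. Dlgap4 and Ppp1ca (a catalytic subunit of protein phosphatase 1) were found in most cells of every cultured group, 72 of 86 and 79 of 86 astrocytes included. Shank2 was detected in 1 of 14 CA1 neurons and in no other cell, and had 10.2 CPM there against at most 0.250 CPM in the other groups. Nlgn3 had no count in CA1 or CA3 neurons, where 3 counts would have been 0.0385 and 0.109 CPM, and came to 3.41 CPM in cultured hippocampal neurons, the highest of the 6 groups. In the F cells of the cortical slice it summed to 8.51 CPM, a level set by F1 (25.8 CPM), the next F cell having 0.456 CPM. Per kb of exon, by the union of annotated exons, the highest member was Nrgn in CA3 (199 CPM per kb), CA1 (414) and slice cortex (262), and Ppp1ca in cultured hippocampal (81.3), cultured cortical (58.5) and astrocyte cells (65.9). Nrgn (1.453 kb) and Ppp1ca (2.52 kb) are the shortest members by this measure. By summed CPM the highest was Kalrn in CA3 (2471) and Dlgap1 in CA1 (2220) and slice cortex (1673). It was Nrxn3 in cultured hippocampal (924) and cultured cortical neurons (291.6) and Ppp1ca in astrocytes (166).

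**Figure D2:**
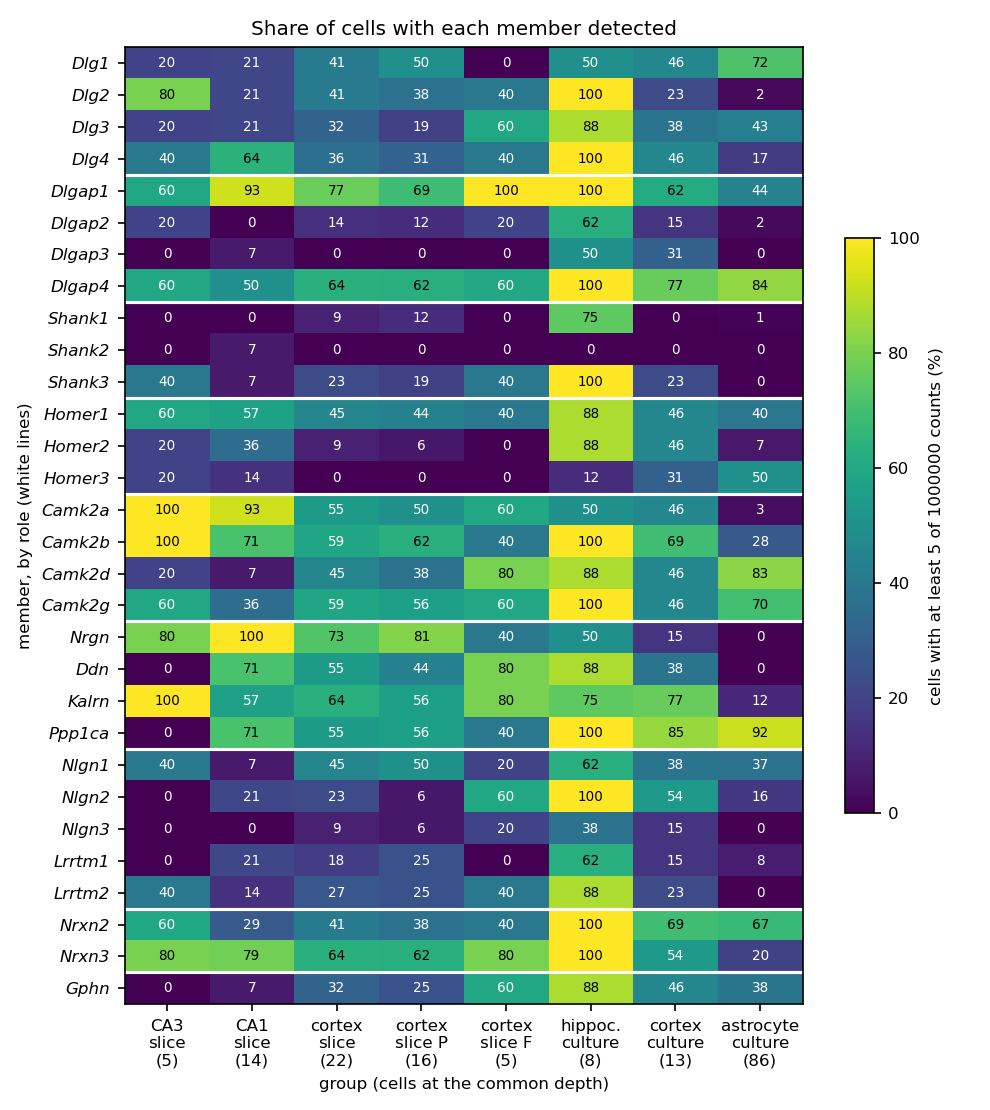
Share of cells (%, colour and printed value) in which each of the 30 members (rows, grouped by role) was detected at 1000000 counts, by group (columns, cells in parentheses). Nrgn and Camk2a are detected in most CA1 and CA3 cells, cultured hippocampal neurons have high shares for most members, and astrocytes have high shares for Dlg1, Dlgap4, Camk2d, Camk2g, Nrxn2 and Ppp1ca.

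Cultured cortical neurons had higher levels of 13 scaffold, kinase and adhesion genes than cultured cortical astrocytes and a lower level of Camk2d. Of 29 measured members, 13 were called higher (11.2% of all measured genes were) and 1 lower (18.5%), and the median log2 ratio of the members was 1.99 against -0.08 over all genes. The share called higher was above that of all genes and the share called lower below it. Kalrn, a guanine nucleotide exchange factor of dendritic spines, passed the detection limit in 10 of 13 (46.2% to 94.96%) neurons and 10 of 86 (5.72% to 20.3%) astrocytes. Over the neurons it had a lowest value of 0.228, a median of 39.95 and a highest of 902 CPM, and over the astrocytes a lowest value of 0, a median of 0.0514 and a highest of 343.7 CPM. The groups overlapped, as they did for all 30 members in this comparison. Summed, Kalrn came to 139 CPM (138 to 141) in neurons and 8.48 CPM (8.32 to 8.64) in astrocytes, a log2 ratio of 3.89.

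The CaMKII genes split between the cell types. Camk2a and Camk2b, the subunits of forebrain neurons, were called higher in cultured cortical neurons. Camk2a had a lowest value of 0, a median of 0.358 and a highest of 98.7 CPM in neurons and a lowest value of 0, a median of 0 and a highest of 26.6 CPM in astrocytes. Camk2b summed to 222.04 CPM in neurons and 8.69 CPM in astrocytes, and was detected in 9 of 13 and 24 of 86 cells. Camk2d, a subunit of wider expression, had a lowest value of 0, a median of 3.88 and a highest of 274.7 CPM in neurons, against a lowest value of 0, a median of 106 and a highest of 771 CPM in astrocytes, and detection came to 6 of 13 neurons, against 71 of 86 astrocytes. It is the 1 member called lower, with 30.2 CPM (29.4 to 30.9) in neurons and 140.1 CPM (139 to 141) in astrocytes (log2 ratio -2.18). Camk2g, at 67.3 CPM in neurons and 113.7 CPM in astrocytes, was not called.

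Several neuronal members were close to absent from astrocytes. Nrgn had 2.62 CPM in neurons and 0.0180 CPM in astrocytes, both too low for a call. Ddn, which encodes the dendritic protein dendrin, summed to 29.3 CPM in neurons and 0.0502 CPM in astrocytes, with 5 of 13 and 0 of 86 cells detected. Of 86 astrocytes, 0 had Dlgap3, Shank2, Shank3, Nrgn, Ddn, Nlgn3 or Lrrtm2 detected, which allows a share of up to 4.199% for each. The remaining called members had log2 ratios from 1.42 for Dlg4 to 5.69 for Dlgap3, with Homer2 at 3.81, Nlgn2 at 3.41, Nrxn3 at 3.45 and Lrrtm2 at 4.41 between them, and Dlg2, Dlgap1 and Nrxn2 also called. Leaving out 1 cell at a time ended the call of Dlg4 (without Sample_2016R11N_10, log2 ratio 0.70), of Ddn (without J8_23, 3.05) and, at any of 9 neurons, of Nrxn2, whose ratio then ran from 2.15 to 2.90. Leaving out 1 cell also moved, by over 1.5 times and with the call kept, Dlg2 (3.09 without Sample_2016R10N_23), Dlgap1 (1.71 without Sample_2016R10N_23), Dlgap3 (4.50 without Sample_2016R14N_13), Camk2a (3.33 without Sample_2016R5N_23), Camk2d (-3.22 without J8_23), Nrxn3 (2.80 without Sample_2016R11N_10), Lrrtm2 (3.26 without J6_8min_20) and Kalrn (5.00 without J263_25).

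Within the cultured cortical neurons the number of members detected differed between days in culture. The libraries of 6 and 15 days were basecalled with 1 version of bcl2fastq and those of 10 and 13 days with the other. The 3 cells of 6 days had 1, 1 and 9 members detected, those of 10 days a median of 10 (4 to 18), those of 13 days 18.5 (12 to 22) and those of 15 days 16 (9 to 20). All genes detected differed in the same order, with medians of 1240 at 6, 1416 at 10, 5584 at 13 and 4926 at 15 days. Summed over the members, the level was 925 CPM at 6 days, 2575 at 10, 3156 at 13 and 1879 at 15 days. Camk2a was detected in 0 of 3, 2 of 3, 3 of 4 and 1 of 3 cells in that order, and Nlgn2 in 0 of 3, 1 of 3, 4 of 4 and 2 of 3. The youngest cells were thus low for both, and with 3 or 4 cells at each age the order of the later ages is not resolved. Of the 3 neurons in which more astrocyte than neuron markers were detected, 1 was kept for 13 and 2 for 15 days. The 3 cells of 15 days had 6 to 8 of 12 microglia markers and 13 to 16 of 17 astrocyte markers detected.

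Slice cortical neurons differed from cultured cortical neurons most in Nrgn. Of 30 members, 5 were called higher (8.86% of all measured genes) and 3 lower (25.9%), and the median log2 ratio was 0.89 for the members and -0.24 for all genes. Again the members' share was above the background for higher and below it for lower. Nrgn had a lowest value of 0, a median of 118 and a highest of 2691 CPM over slice neurons, against a lowest value of 0, a median of 0.0806 and a highest of 26.2 CPM over cultured neurons. Detection came to 16 of 22 (49.8% to 89.3%) slice neurons, against 2 of 13 (1.92% to 45.4%) cultured ones. The ranges overlapped, but 15 of 22 slice cells and 1 of 13 cultured cells had at least 10 CPM. Summed, it came to 381 CPM (378 to 384) in slice and 2.62 CPM (2.40 to 2.85) in cultured neurons, a log2 ratio of 6.72. Its gene lies on chr9:37544492-37552904 (minus strand, GRCm38). The groups also differed in a marker of neuron class. Slc17a7, a transporter gene of excitatory neurons, summed to 93.6 CPM in slice and 2.95 CPM in cultured neurons. It passed the detection limit in 12 of 22 and 2 of 13 cells. The sums of Gad1 were closer, at 1374 CPM and 1605 CPM. Within the slice, Nrgn came to 541 CPM in P and 6.62 CPM in F cells. The part of neuron class in the difference between slice and culture was not tested.

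Camk2a and Dlgap1 were also called higher in slice cortical neurons. Camk2a had a lowest value of 0, a median of 44.8 and a highest of 1260.0 CPM in slice and a lowest value of 0, a median of 0.358 and a highest of 98.7 CPM in cultured neurons, with sums of 185 CPM and 26.5 CPM. Dlgap1 summed to 1673 CPM in slice and 245 CPM in cultured neurons and was detected in 17 of 22 and 8 of 13 cells (log2 ratio 2.77). For both genes the slice median lay above the cultured one and the ranges overlapped. The adhesion genes Nlgn1 and Lrrtm2 were called at log2 ratios of 1.02 and 1.79 with detection in 10 of 22 slice against 5 of 13 cultured cells and in 6 of 22 against 3 of 13. Neither was stable, as Nlgn1 lost its call without any of 15 cells (ratios from 0.68 to 0.98) and Lrrtm2 without P24 (0.35).

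Called lower in slice cortical neurons were Dlgap3, Homer3 and Nlgn2. Dlgap3 was found in 0 of 22 slice neurons and in 4 of 13 cultured ones, at sums of 0.138 CPM and 51.4 CPM (log2 ratio -5.52). Homer3 likewise was detected in 0 of 22 and 4 of 13 cells, with 0.0197 CPM and 48.5 CPM (log2 ratio -5.60). Homer3 shares 25.4% of its exon bases with Ddx49 on the other strand, and since the strand setting of the counting is not given its counts are uncertain. Nlgn2 had a lowest value of 0, a median of 0.0585 and a highest of 146 CPM over slice and a lowest value of 0, a median of 9.63 and a highest of 233.4 CPM over cultured neurons, and its call (log2 ratio -1.72) ended without any of 3 cultured cells, Sample_2016R9N_19, Sample_2016R10N_23 and Sample_2016R14N_13 (ratios from -1.45 to -1.34). Ratios moved by over 1.5 times, with the call kept, for Dlgap1 (3.44 without Sample_2016R10N_23), Dlgap3 (-4.34 without Sample_2016R14N_13), Homer3 (-3.87 without Sample_2016R3N_6), Camk2a (3.39 without Sample_2016R5N_23) and Nrgn (7.54 without Sample_2016R3N_6).

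The count of members called higher in slice cortex depended on the cells kept. It was 10 without the 6 slice cells with under 1000 genes (when 12.4% of all measured genes were called), 10 without the 12 slice and cultured cells with at least 3 microglia markers (11.3%) and 8 without the 6 neurons with more astrocyte than neuron markers (15.5%), against 5 with all cells (8.86%). Over all measured genes, the median difference in detection, slice minus culture, was -9.44 percentage points. The microglia markers summed to 0.456 to 20824 CPM per slice cell (median 700.1) and 0 to 2008 CPM per cultured cell (median 0.270), with all 12 markers found in both groups.

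CA1 neurons of the slice had far more Camk2a and Nrgn than cultured hippocampal neurons and less of 12 other members. Of 29 measured members, 2 were called higher (3.51% of all measured genes) and 12 lower (34%), with a median log2 ratio of -1.35 against -1.11 over all genes. Both shares were somewhat above those of all genes. Camk2a had a lowest value of 0, a median of 165 and a highest of 1745 CPM over CA1 and a lowest value of 0, a median of 5.91 and a highest of 21.7 CPM over cultured neurons. It was detected in 13 of 14 (66.1% to 99.8%) CA1 and 4 of 8 (15.7% to 84.3%) cultured cells and summed to 484 CPM (479 to 489) and 6.56 CPM (6.04 to 7.12), a log2 ratio of 6.00. Nrgn had a lowest value of 0, a median of 566 and a highest of 2361 CPM over CA1 and a lowest value of 0, a median of 6.33 and a highest of 177 CPM over cultured neurons, with sums of 602 CPM (596 to 607) and 21.97 CPM (21.003 to 22.97) (log2 ratio 4.71). Both genes were detected together in 13 of 14 CA1 and 2 of 8 cultured neurons. Although medians stood far apart, the ranges overlapped for both, since the lowest CA1 cell had 0 CPM, and the 1 CA1 cell too shallow for the detection shares is among these values.

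These are also the only 2 members called higher in slice than in culture for both cortex and hippocampus. They are 2 of the 5 called in cortex and 2 of the 2 called in hippocampus. Nlgn2 was called lower in both (1 of 3 and 1 of 12), and Nlgn1 and Lrrtm2 were called in opposite directions, higher in slice for cortex and lower for hippocampus. The share of all measured genes called in both comparisons is not given here, so this overlap does not set the members apart. Slc17a7 differed the same way in both, at 93.6 CPM in slice and 2.95 CPM in culture for cortex, and 104 CPM and 9.64 CPM for hippocampus. The part of neuron class was not tested.

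The members called lower in CA1 included scaffolds, CaMKII subunits, adhesion genes and Gphn. Shank1 and Shank3, the scaffolds deep in the density, were detected in 0 of 14 and 1 of 14 CA1 neurons, against 6 of 8 and 8 of 8 cultured hippocampal neurons. Shank1 had a lowest value of 0, a median of 0 and a highest of 2.67 CPM over CA1 and a lowest value of 2.88, a median of 14.997 and a highest of 62.3 CPM over cultured neurons. Every CA1 cell thus lay below every cultured cell, which held for no other member in any of the 7 comparisons. The share of all genes separated in this way was not computed, so the separation does not set Shank1 apart. Over all measured genes the median difference in detection was -42.9 percentage points. The sums of Shank1 were 0.231 CPM and 21.8 CPM (log2 ratio -4.21). Camk2d and Camk2g were called lower too (log2 ratios -5.12 and -2.18), so that within CaMKII the neuronal subunit Camk2a and these broader ones differed in opposite directions.

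Both genes of the inhibitory postsynapse were called lower in CA1. Gphn had a lowest value of 0, a median of 0.305 and a highest of 20.8 CPM over CA1 and a lowest value of 0, a median of 102 and a highest of 150.01 CPM over cultured hippocampal neurons, and sums of 0.732 CPM (0.554 to 0.949) and 94.5 CPM (92.5 to 96.5) (log2 ratio -5.78). Nlgn2 was detected in 3 of 14 CA1 and 8 of 8 cultured cells, at 8.90 CPM and 116.4 CPM (log2 ratio -3.57). Both genes were detected together in 1 of 14 CA1 and 7 of 8 cultured neurons. Among adhesion genes, Lrrtm2 (-4.26), Nrxn2 (-3.42), Nlgn1 (-5.11) and Lrrtm1 (-1.74) were lower as well, as were the scaffolds Dlg2 (-1.98) and Dlgap2 (-3.88), all as log2 ratios. Dlg2 alone lost its call when 1 cell was left out, without M1S or P2S (ratios from -1.68 to -1.59). Without CA1-5 the ratio of Dlg2 moved furthest, to -4.61, with the call kept. The call was kept but the ratio moved by over 1.5 times, on leaving out 1 cell, for Shank3 (-4.30 without CA1-3), Camk2g (-3.46 without CA1_20), Nrgn (5.76 without M1D), Nlgn1 (-4.33 without M1S), Nlgn2 (-4.27 without CA1-15), Lrrtm1 (-4.21 without CA1_20) and Lrrtm2 (-5.73 without CA1-5).

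The cultured hippocampal neurons all had Gad1 detected, at a summed 8856 CPM against 686 CPM in CA1, and a median of 8.5 of 12 inhibitory markers detected against 1 in CA1. Culture and strain name cannot be told apart in this comparison, and the part of the cell class was not tested. With libraries of the later bcl2fastq version only, 3 members were called higher and 12 lower (3.1% and 36.5% of all measured genes). At equal depth the median difference in detection over all measured genes, CA1 minus culture, was -42.9 percentage points. Scaling by edgeR's TMM factors shifted the CA1 ratios upward by up to 1.14 (log2), and 3 members were then called higher and 9 lower (3.97% and 21.9% of all genes). Without the 8 CA1 cells with at least 3 microglia markers, 3 were called higher and 10 lower, against 3.66% and 41.8% of all genes, so that the share called lower was then below that of all genes.

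**Figure D3:**
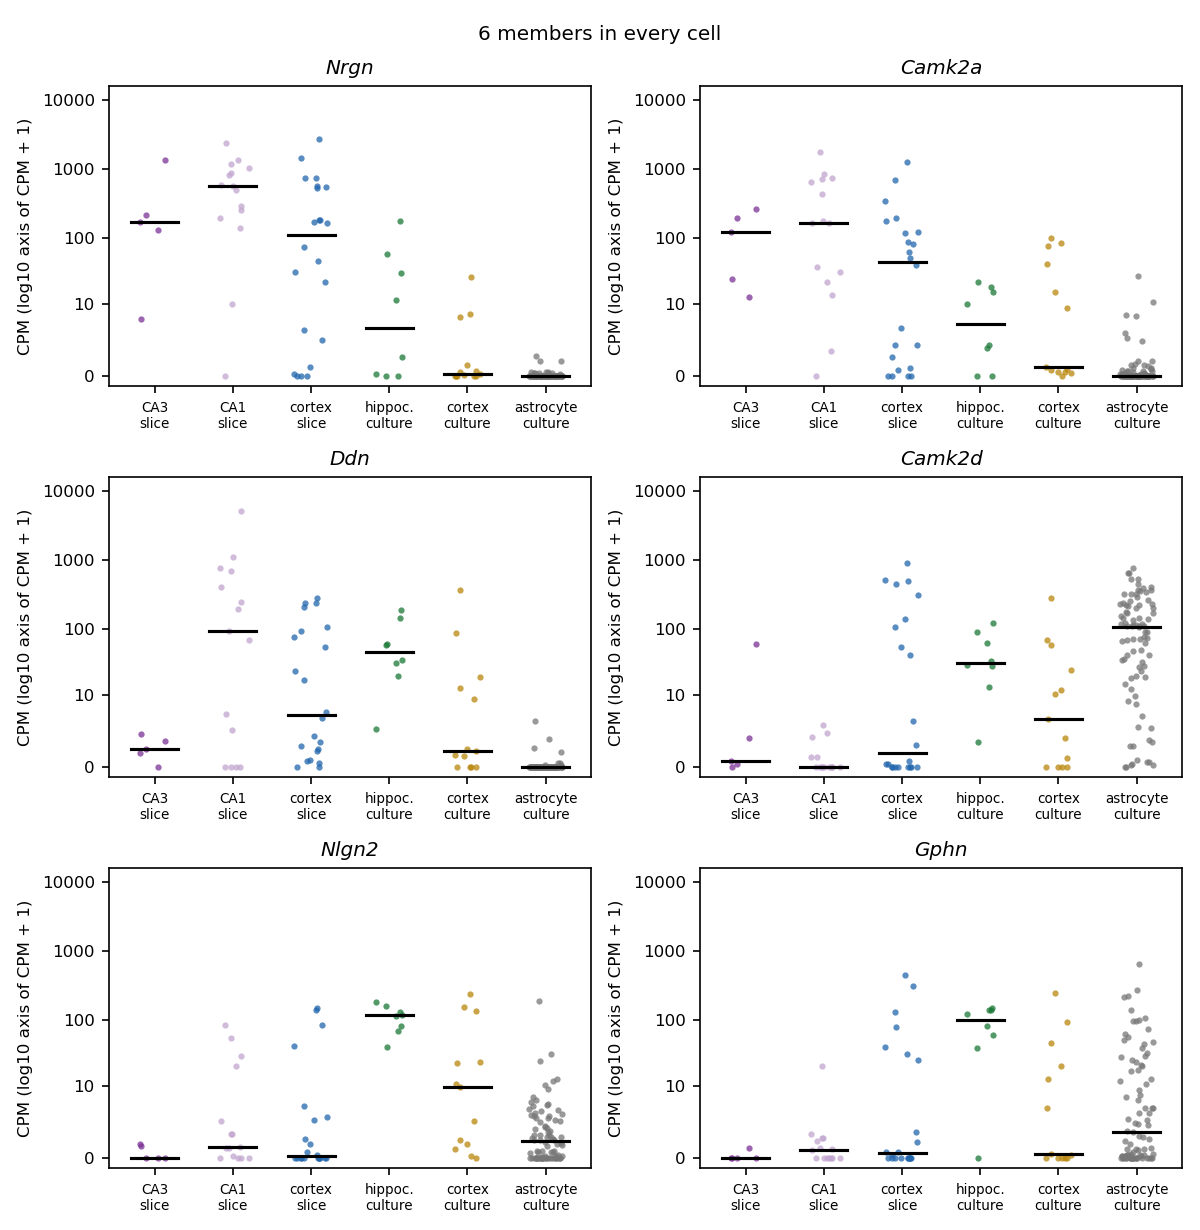
CPM of 6 members in every cell of the 6 groups (log10 axis of CPM plus 1, 1 point per cell, black bar the median on that axis). Nrgn and Camk2a lie highest in the slice groups, Ddn in CA1, Camk2d in astrocytes, and Nlgn2 and Gphn in cultured hippocampal neurons.

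The promoter of Nlgn2, the member called lower in slice than in culture for both cortex and hippocampus, is shown as 250 bases upstream of its RefSeq start (GRCm38.p6, chr11:69837785-69838034, minus strand, 5′ to 3′). It holds 3 matches, in capitals, to GGGCGG, the GC box bound by Sp1 family factors.
Nlgn2: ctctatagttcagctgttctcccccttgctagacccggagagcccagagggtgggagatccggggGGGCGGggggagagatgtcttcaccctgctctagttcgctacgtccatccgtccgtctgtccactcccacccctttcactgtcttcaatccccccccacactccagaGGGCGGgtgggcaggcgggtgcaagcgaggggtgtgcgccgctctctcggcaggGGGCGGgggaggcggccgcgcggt

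The RefSeq table held 34 such windows for 20 of the 30 members. TATAAA was found on either strand in 3 of the 34 windows (8.82%), against 12.4% of all 32851 windows, GGGCGG in 13 (38.2% against 32.7%), TGACGT, the core of the cAMP response element, in 1 (2.94% against 6.47%) and CACGTG in 3 (8.82% against 6.02%). None of these motifs contains another, and some genes have several windows. The Nlgn2 window had 18 CG dinucleotides and 67.6% G plus C, beside a median of 9 and 55.2% over the members' windows and of 6 and 52.4% over all windows. A match describes the letters of a window and no binding.

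Cultured hippocampal neurons had higher levels of Shank1, Shank3, Dlg4, Dlgap1, Dlgap2, Lrrtm1 and Lrrtm2 than cultured cortical neurons. Of 29 measured members, 11 were called higher (19.2% of all measured genes) and 1 lower (7.39%), and the median log2 ratio was 0.76 for the members and 0.15 for all genes. Members were called higher in a larger share than all genes. Shank3 had a lowest value of 5.65, a median of 29.01 and a highest of 65.1 CPM over hippocampal and a lowest value of 0, a median of 0.243 and a highest of 21.1 CPM over cortical neurons, and was detected in 8 of 8 (63.1% to 100%) and 3 of 13 (5.04% to 53.8%) cells. Shank1 was detected in 6 of 8 and 0 of 13 cells, with sums of 21.8 CPM (20.8 to 22.8) and 0.416 CPM (0.333 to 0.513) (log2 ratio 4.01). The hippocampal medians lay above the cortical ones for both, with overlapping ranges.

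Among scaffolds, Dlg4 summed to 51.8 CPM in hippocampal and 11.6 CPM in cortical neurons, and Homer2 to 179 CPM and 36.4 CPM. Dlgap1 had a log2 ratio of 1.42 and Dlgap2 of 1.23. Among adhesion genes, Lrrtm2 was detected in 7 of 8 hippocampal and 3 of 13 cortical neurons (log2 ratio 1.94) and Lrrtm1 in 5 of 8 and 2 of 13 (2.94). Nrxn3, a presynaptic partner of these, came to 924 CPM and 291.6 CPM, and Nlgn2 to 116.4 CPM and 56.4 CPM. Nrgn was called as well, at 21.97 CPM and 2.62 CPM. Homer3 was the 1 member called lower, with 1.17 CPM in hippocampal and 48.5 CPM in cortical neurons (log2 ratio -4.51).

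The median difference in detection, hippocampal minus cortical, was 23.1 percentage points over all measured genes and 41.3 over the members. Nlgn2 lost its call without any of 11 cells (ratios from 0.87 to 0.99) and Dlgap2 without P1S (0.77). Calls were kept, with a ratio moved over 1.5 times, for Dlg4 (2.79 without Sample_2016R11N_10), Dlgap1 (2.10 without Sample_2016R10N_23), Homer2 (1.29 without N5S), Homer3 (-2.78 without Sample_2016R3N_6), Nrgn (1.62 without M1D), Nrxn3 (2.31 without Sample_2016R11N_10), Lrrtm1 (5.43 without J8_23) and Lrrtm2 (3.09 without J6_8min_20). Gad1 was detected in 8 of 8 hippocampal and 7 of 13 cortical neurons, and its part in these differences was not tested. Strain name differed between the cultures as well. All hippocampal cells had the same days in culture and the later bcl2fastq version, while the cortical cells had several ages and both versions. Region cannot be told apart from strain name in this comparison, and the part of days in culture was not tested.

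In the cortical slice, P cells had more Nrgn and Dlg1 and less Dlg3 than F cells. Of 29 measured members, 6 were called higher (25.9% of all measured genes) and 1 lower (17%). The median log2 ratio of the members was 0.37, below the 0.80 of all genes, and both shares were below the background. Nrgn had a lowest value of 0, a median of 174 and a highest of 2691 CPM over P cells, against 0.0674, 3.61, 0.332, 30.6 and 2.28 CPM in the F cells F1, F2, F6, F7 and F11, and was detected in 13 of 16 (54.4% to 96.0%) P and 2 of 5 (5.27% to 85.3%) F cells. Summed, it came to 541 CPM (536 to 545) in P and 6.62 CPM (5.89 to 7.41) in F cells (log2 ratio 6.15). All 5 F cells lay below the P median, while the lowest P cells overlapped them.

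Dlg1, which encodes SAP97, had a lowest value of 0, a median of 5.53 and a highest of 1785 CPM over P cells and 2.49, 1.08, 0, 0.115 and 0 CPM in the F cells, with sums of 399.5 CPM (396 to 403) and 0.967 CPM (0.703 to 1.30) (log2 ratio 7.67). Its paralog Dlg3, which encodes SAP102, went the other way, with a lowest value of 0, a median of 0 and a highest of 1029 CPM over P cells and 417, 1.63, 949, 1545 and 0.683 CPM in the F cells. The sums of Dlg3 were 117.3 CPM (115.2 to 119.4) and 683 CPM (675 to 690.2) (log2 ratio -2.53). Detected were Dlg1 in 8 of 16 P and 0 of 5 F cells, and Dlg3 in 3 of 16 and 3 of 5, so that the 2 paralogs were high in different cells. Both were detected in 1 P cell and in 0 F cells.

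The other 4 calls rested on few cells. Homer1 had a lowest value of 0, a median of 2.62 and a highest of 11872 CPM over P cells and 29.3, 1.26, 0.0830, 0.230 and 41.2 CPM in the F cells, its sum in P being set largely by P15, a cell with 738 genes detected, and its call ended without any of 10 cells (log2 ratios from 3.80 to 6.76, 6.56 with all). Homer2 was detected in 1 of 16 P and 0 of 5 F cells, and without P2 its log2 ratio of 4.30 turned to -0.97. Lrrtm1 had no count in any F cell and summed to 10.4 CPM in P cells, where it was detected in 4 of 16. Its P median was 0, and 10 of the 16 P cells had no count either. The summed P level was at least 158-fold a floor of 3 counts over the F cells (0.0659 CPM). This bound covers counting only and not the spread between cells. Lrrtm1 lost its call without P1 or P22. Ppp1ca (1.20) lost it without any of 5 cells, the lowest ratio being 0.18 without P19. For 3 members 1 cell moved the ratio by over 1.5 times without ending the call: Dlg1 (8.35 without F1), Dlg3 (-3.43 without P1) and Nrgn (8.12 without F7).

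Dlgap1 had high sums in both kinds of cell, 1476 CPM in P and 2187 CPM in F cells, and Camk2a summed to 200.1 CPM and 155 CPM. Dlgap1 was detected in 11 of 16 P and 5 of 5 F cells, and Camk2a in 8 of 16 and 3 of 5. Nlgn2 and Gphn were detected together in 1 of 16 P and 3 of 5 F cells, at 11.8 CPM and 22.2 CPM for Nlgn2 and 38.9 CPM and 58.6 CPM for Gphn, without reaching a call. Gad1 was detected in 2 of 16 P and 5 of 5 F cells and Slc17a7, the vesicular glutamate transporter of forebrain excitatory neurons, in 10 of 16 and 1 of 5. Scaling by TMM factors or DESeq2 size factors brought the members called lower to 6 and 7 (of all genes, 20.4% and 22.4%), so the number called lower depends on scaling. Nrgn, Dlg1 and Dlg3 kept their calls under both. Summed microglia markers ran from 0.495 to 20824 CPM in P cells and from 0.456 to 78.7 in F cells. Without the 8 P cells with at least 3 of them, 5 members were called higher and 1 lower (22.7% and 24.1% of all genes), and Homer2 (-0.84) and Ppp1ca (-0.75) changed sign.

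**Figure D4:**
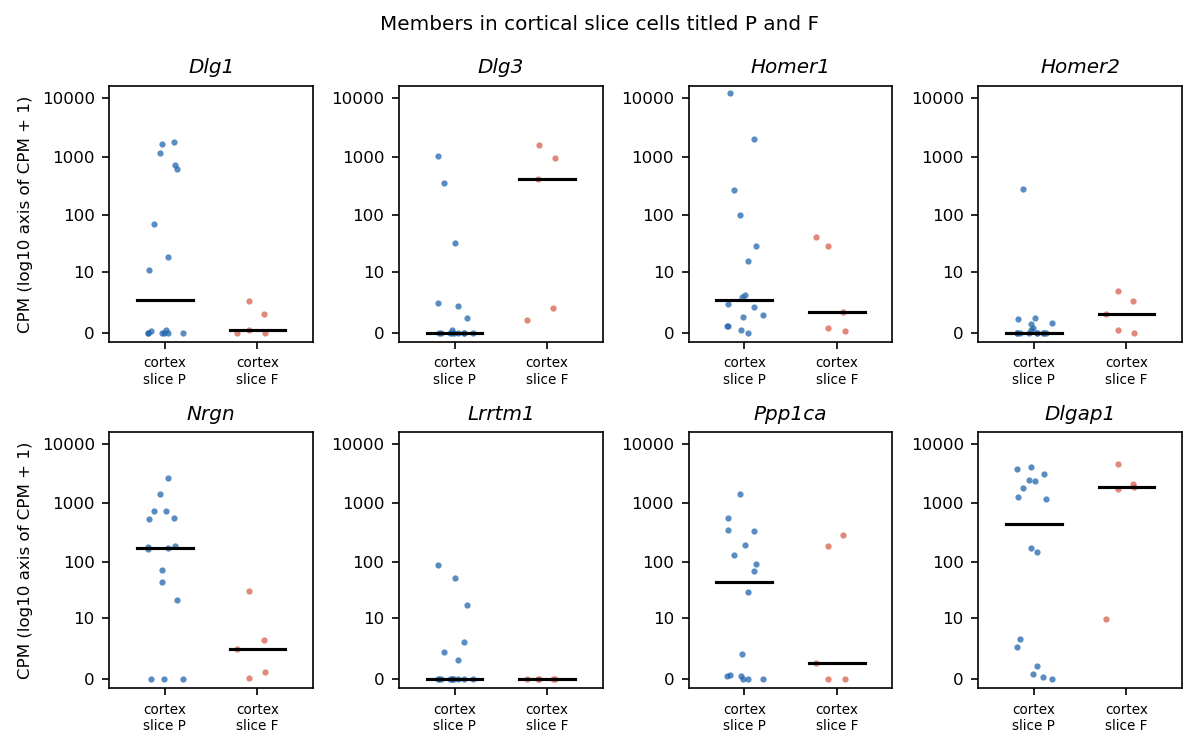
CPM of the 7 called members and of Dlgap1 in the 16 P (left) and 5 F (right) cells of the cortical slice (log10 axis of CPM plus 1, black bar the median on that axis). The F cells lie below the P median for Nrgn and Dlg1, Dlg3 is high in 3 of 5 F cells, and few P cells are high for Homer1 and Homer2.

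CA1 neurons differed from slice cortical neurons in both directions, with more Ddn and Camk2b and less Camk2d, Nlgn1 and Gphn. Of 30 members, 7 were called higher (12.3% of all measured genes) and 9 lower (21.9%), and the median log2 ratio was -1.02 against -0.37 over all genes. Both shares lay above those of all genes with all cells kept, and below them without the cells with at least 3 microglia markers. Ddn had a lowest value of 0, a median of 93.2 and a highest of 5046 CPM over CA1 and a lowest value of 0, a median of 4.70 and a highest of 284 CPM over cortical neurons. It was detected in 10 of 14 and 12 of 22 cells and summed to 1125 CPM (1118 to 1133) and 72.6 CPM (71.3 to 73.98) (log2 ratio 3.94). The CA1 sum owed much to the cell CA1-15, without which the ratio was 2.42. The neuronal CaMKII genes summed to 484 CPM and 185 CPM for Camk2a, and to 712 CPM and 232.7 CPM for Camk2b, in CA1 and cortex. Camk2a lost its call without CA1-14, and its log2 ratio was -0.72 without the cells with at least 3 microglia markers.

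Camk2d was close to absent from CA1. It had a lowest value of 0, a median of 0 and a highest of 3.05 CPM over CA1 and a lowest value of 0, a median of 0.643 and a highest of 899.8 CPM over cortical neurons, was detected in 1 of 14 (0.181% to 33.9%) and 10 of 22 (24.4% to 67.8%) cells and summed to 0.514 CPM (0.367 to 0.700) and 201 CPM (199 to 204) (log2 ratio -7.06). Nlgn1 had a lowest value of 0, a median of 0.193 and a highest of 7.01 CPM over CA1 and a lowest value of 0, a median of 0.693 and a highest of 556 CPM over cortex, with 1 of 14 and 10 of 22 cells detected (log2 ratio -5.90). Gphn had sums of 0.732 CPM and 44.4 CPM (-4.71) and Lrrtm2 of 4.17 CPM and 88.0 CPM (-4.10). For these genes the ranges overlapped because many of the cortical cells were also near 0. Dlg1 (-3.63) and Camk2g (-2.26) were called lower with the call kept whichever cell was left out.

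For 7 members leaving out 1 cell was enough to end the call: Dlg4 (without CA1-16 or CA1_29, ratios from 0.12 to 1.27), Shank2 (without CA1_25, -0.20), Camk2a (without CA1-14, 1.09), Lrrtm1 (without CA1-3, CA1-14 or CA1_20, from -0.55 to 1.97), Dlg2 (without P5, -1.34), Shank3 (without P32, -0.59) and Kalrn (without P21, -0.995). Of these, Dlg2 moved furthest without CA1-5, to -4.35, with the call kept. In others 1 cell moved the ratio by over 1.5 times and left the call: Dlg1 (-5.61 without CA1-18), Homer2 (4.93 without P2), Camk2g (-3.54 without CA1_20), Ddn (2.42 without CA1-15) and Lrrtm2 (-5.58 without CA1-5). In 8 of 14 CA1 and 9 of 22 cortical cells at least 3 microglia markers were detected. Without these cells 3 members were called higher and 5 lower (17% and 23.3% of all genes). Camk2a then turned to -0.72, Dlg4 to -0.042 and Shank2 to -0.32, so the direction of these 3 differences depends on those cells. Without the cells with under 1000 genes, Shank3 turned to 1.31 and Shank2 to -0.24, and without the neurons with more astrocyte markers Shank3 turned to 0.10.

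CA3 neurons had almost no Ddn or Ppp1ca, which CA1 neurons held at high levels, and more Dlg2, Nlgn1 and Camk2g. Of 28 measured members, 5 were called higher (17.2% of all measured genes) and 7 lower (25.9%), with median log2 ratios of -0.64 for the members and -0.70 for all genes. Both shares are near the background, so the counts themselves say nothing of the members. Ddn had 0.610, 0.794, 1.36, 0 and 2.04 CPM in the 5 CA3 cells (in the order CA3-2, CA3-8, CA3-9, CA3_10 and CA3_21), against a lowest value of 0, a median of 93.2 and a highest of 5046 CPM over CA1. It was detected in 0 of 5 (0% to 52.2%) CA3 and 10 of 14 (41.9% to 91.6%) CA1 neurons, with sums of 0.692 CPM (0.417 to 1.08) and 1125 CPM (1118 to 1133) (log2 ratio -9.38). Ppp1ca had 0, 0, 0.339, 0 and 0 CPM in the CA3 cells and a lowest value of 0, a median of 54.1 and a highest of 1288 CPM over CA1, and sums of 0.0364 CPM and 173 CPM (log2 ratio -7.39). The CA3 cells were uniformly low for both, and the groups overlapped only because some CA1 cells were low too.

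Dlg2, which encodes PSD-93, had 55.7, 23.4, 0, 2506 and 617 CPM in the CA3 cells and a lowest value of 0, a median of 0.754 and a highest of 411 CPM over CA1, with 4 of 5 and 3 of 14 cells detected (log2 ratio 5.20, 2.09 without CA3_10). Nlgn1 had 57.96, 0.0992, 0, 252 and 0.510 CPM in the CA3 cells and a highest value of 7.01 CPM over CA1 (log2 ratio 5.81, 3.42 without CA3_10). For Dlg2 4 of the 5 CA3 cells had at least 10 CPM, and for Nlgn1 2 of 5. Camk2g was detected in 3 of 5 CA3 and 5 of 14 CA1 neurons (log2 ratio 1.90). Kalrn was detected in all 5 CA3 cells, at 194, 6127, 413, 10.2 and 1951 CPM, and in 8 of 14 CA1 cells. Its log2 ratio of 3.18 came to 0.36 without CA3-8, and Lrrtm2 (2.22) came to -0.28 without CA3-9.

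Dlgap1 was called lower in CA3, with 2.03, 0.794, 977, 95.7 and 1568 CPM in the CA3 cells and a lowest value of 2.26, a median of 224 and a highest of 8533 CPM over CA1 (log2 ratio -3.18). Homer2 was lower as well (-2.73), and without the 9 CA3 and CA1 cells with at least 3 microglia markers it turned to 3.29. Dlg4 (-1.64) lost its call without CA1-16 or CA1_29, Lrrtm1 (-4.75) without CA1_20, and Dlg3 (-4.22) without any of 7 cells. Camk2a and Camk2b, which every CA3 cell held, were at 125 CPM in CA3 and 484 CPM in CA1 and at 461 CPM and 712 CPM, without a call. Single cells moved the ratio by over 1.5 times without ending the call for Dlg2 (2.09 without CA3_10), Dlgap1 (-3.96 without CA3_21), Homer2 (-7.49 without CA3-8), Camk2g (3.18 without CA1_20), Ddn (-7.87 without CA1-15), Nlgn1 (3.42 without CA3_10) and Ppp1ca (-6.58 without CA1_24).

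Within families the mix of paralogs differed between groups. Shares of a family's summed counts are read across groups and not between paralogs, whose lengths differ. Camk2a made up 18.6% of Camk2 counts in CA3, 39.7% in CA1 and 25.6% in slice cortex, 1.61% in cultured hippocampal, 7.65% in cultured cortical neurons and 0.292% in astrocytes. Camk2d took 1.01%, 0.0422% and 27.8% in the slice groups, 12.7% and 8.72% in cultured hippocampal and cortical neurons and 53.2% in astrocytes. Camk2g took 43.2% of the family in astrocytes and 1.74% in CA1. Leaving out 1 cell moved some of these shares by over 1.5 times, those of Camk2a in CA3 (9.79% without CA3-8), Camk2a in cultured cortical neurons (4.79% without Sample_2016R5N_23), Camk2a in astrocytes (0.182% without J332_25), Camk2d in CA3 (0.0840% without CA3-9), Camk2d in CA1 (0.0250% without CA1_20), Camk2d in cultured cortical neurons (4.36% without J8_23) and Camk2g in CA1 (0.619% without CA1_20).

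In the Dlg family the paralog with the most counts differed between groups. Dlg2 took 90.6% of the counts in CA3, Dlg4 54.4% in CA1, Dlg1 61.6% in P and Dlg3 81.8% in F cells, Dlg3 46.3% in cultured hippocampal and 47.5% in cultured cortical neurons, and Dlg1 82.1% in astrocytes. Single cells often held 1 paralog almost alone, as in CA1, where Dlg4 made up a median of 97.0% over the 12 cells with at least 20 Dlg counts. In cultured hippocampal neurons the 4 paralogs were more mixed, with a median Dlg3 share of 46.6%, against 11.3% in cultured cortical neurons. Homer1 made up 93.0% of Homer counts in CA3, 64.7% in CA1 and 96.5% in slice cortex, against 16.3% in cultured hippocampal neurons, where Homer2 took 83.1%. Homer3 took 32.8% in cultured cortical neurons, where its share was 0.552% in the median cell with at least 20 Homer counts, and 26.3% in astrocytes. Single cells moved by over 1.5 times the shares of Dlg2 in CA3 (48.9% without CA3_10), Dlg4 in CA1 (28.7% without CA1-16), Dlg3 in cultured cortical neurons (24.6% without Sample_2016R5N_23), Homer1 in CA3 (50.2% without CA3_10), Homer1 in cultured hippocampal neurons (29.95% without N5S) and Homer3 in cultured cortical neurons (11.7% without Sample_2016R3N_6), so which Dlg paralog had the most counts in CA1 and in cultured cortical neurons rests on 1 cell each.

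Among neuroligins, Nlgn1 took 99.8% of the counts in CA3, 4.68% in CA1, 81.3% in slice cortex, 28.8% in cultured hippocampal and 41.5% in cultured cortical neurons and 89.5% in astrocytes, with Nlgn2 taking most of the rest. Shares moved by over 1.5 times on leaving out 1 cell for Nlgn1 in CA1 (1.57% without CA1-5), Nlgn1 in cultured hippocampal neurons (18.8% without M1S) and Nlgn1 in cultured cortical neurons (24.8% without J5_18). The CA1 and CA3 shares rest on 2 to 5 cells with at least 20 neuroligin counts. Nlgn1 and Nlgn2 were detected together in 0 of 14 CA1, 5 of 8 cultured hippocampal and 3 of 13 cultured cortical neurons. Nlgn3 shares 41.2% of its exon bases with another annotated gene on its own strand, so its counts are uncertain.

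**Figure D5:**
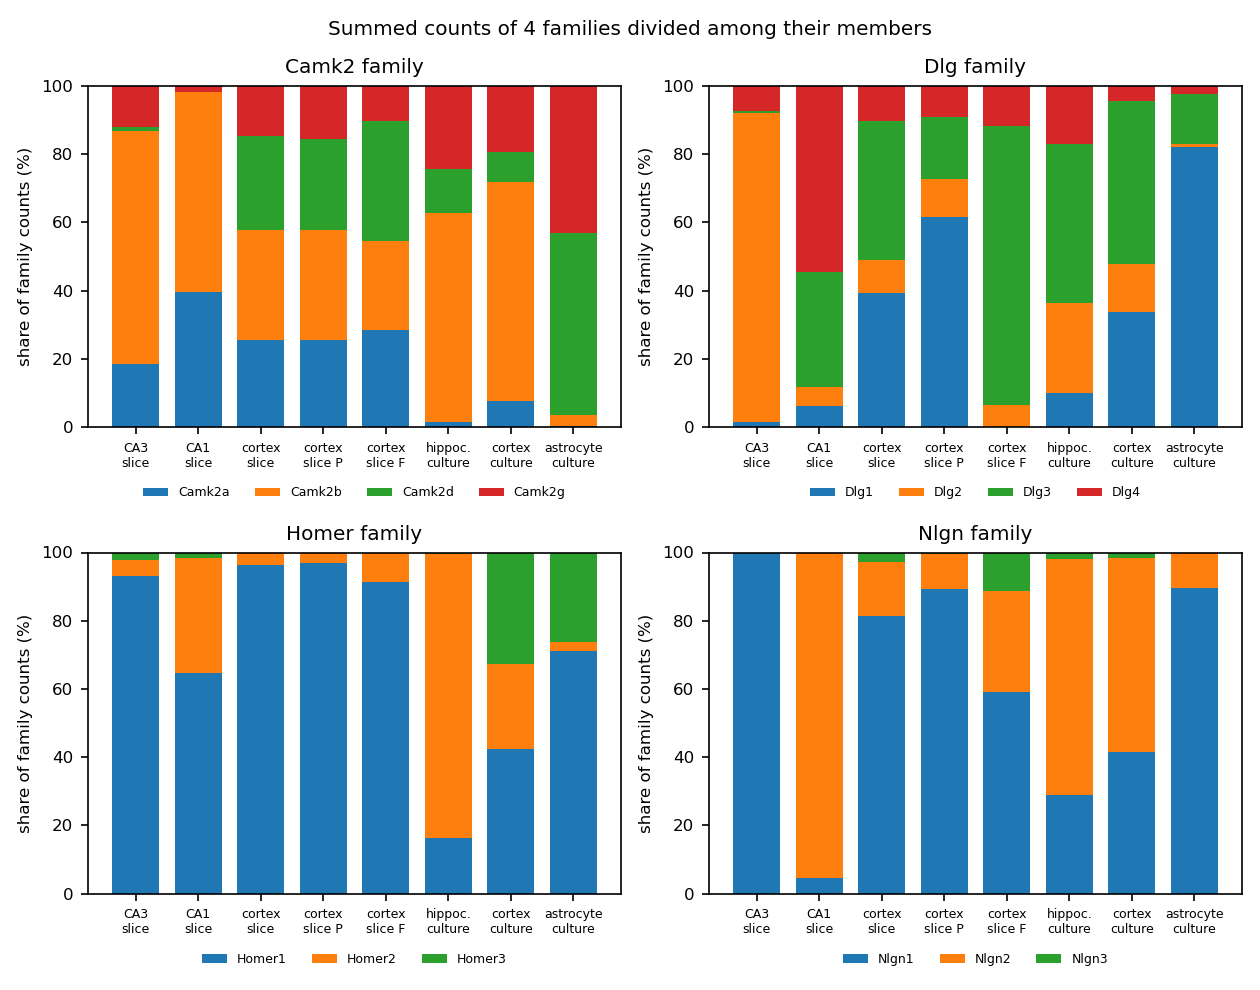
Share of the summed counts of the Camk2, Dlg, Homer and Nlgn families (%, y axis) taken by each paralog (colours) in each group (x axis, P and F being subsets of slice cortex). Camk2d and Camk2g fill the astrocyte bar, Dlg2 the CA3 bar, Homer2 most of the cultured hippocampal bar, and Nlgn2 the CA1 bar.

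Other genes of the same synapses, listed by hand, were counted by the same rule (26 scaffold and signalling genes with a row, and 38 adhesion genes). Counts are given as called higher and called lower, beside the shares of all measured genes called in those directions. In cultured cortical neurons over astrocytes, 12 and 1 scaffold genes and 12 and 3 adhesion genes were called (11.2% and 18.5% of all genes). Slice over cultured cortical neurons gave 3 and 8 scaffold and 5 and 5 adhesion genes (8.86% and 25.9%). CA1 over cultured hippocampal neurons gave 3 and 6, and 3 and 12 (3.51% and 34%). In cultured hippocampal over cortical neurons there were 4 and 4 scaffold and 13 and 2 adhesion genes (19.2% and 7.39%). P over F cells gave 12 and 0 scaffold genes, with a median log2 ratio of 2.68 beside the 0.80 of all genes, and 5 and 4 adhesion genes (25.9% and 17%). CA1 over slice cortex gave 6 and 7, and 3 and 7 (12.3% and 21.9%), and CA3 over CA1 4 and 5, and 5 and 6 (17.2% and 25.9%).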

How the data were processed

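The deposited values are raw counts of reads per gene, whole numbers in 158 libraries and 21956 gene rows, made by the authors with bcl2fastq (1.8.4 or 2.17), STAR and HTSeq on the mm10 mouse genome, per the submitters' processing notes. Not given in the sources used here: versions of STAR and HTSeq, the annotation, and the strand setting of the counting. Libraries of the same cell were summed, 9 pairs in all, of which 8 were matched by title and 1 by its counts, which left 149 cells.

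Groups came from the labels, and 30 members were read from the table by symbol. The members, the marker lists and the other synaptic gene lists were chosen with earlier results of these data known. Levels, exact intervals, detection after thinning to 1000000 counts (seed 7) and the rule of size were computed with Python 3.11.15, numpy 2.4.6, pandas 2.3.3 and scipy 1.17.1, and the comparison step was tested on simulated data. To be measured in a comparison, a gene needed 10 counts over the pair of groups and a count in 3 or more cells. With 1 sample per group no p-value was computed. Named were the members called in a comparison, up to 10 in each direction by difference in detection and then log2 ratio, and at least 1 member of each role. Members beyond that number are named to account for every call. Alternative scalings used TMM factors (edgeR 4.0.16) and size factors (DESeq2 1.42.0) in R 4.3.3, with no test from either tool. Other alternatives changed the filters, the cells kept and the basecalling version, and 5 of them were added after the data were seen. Library totals ran from 535369 to 38680739 counts. Promoter windows came from RefSeq (GRCm38.p6).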

Additional observations from a re-analysis of the deposited data

Results flagged for a closer look

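For each member in groups of 4 to 10 cells, the gap of the highest or lowest cell to its neighbour was set against the group's range, and 21 of the 87 sets looked at passed Dixon's 95% value. Chance flags about 1 in 20 groups of evenly spread values, and counts of single amplified cells are not evenly spread. Values are CPM.

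Among CA3 neurons 1 cell stood far above the others for 9 members. CA3_10 held 44.4 CPM of Dlg1, 0.133 of Dlgap3 and 0.398 of Gphn. CA3-9 held 49.1 CPM of Dlg3, 6.44 of Dlgap2, 58.6 of Camk2d and 0.339 of Ppp1ca. CA3-8 held 83.6 CPM of Homer2, and CA3_21 held 199.6 of Homer3. The values of Dlgap3, Gphn and Ppp1ca are below 1 CPM.

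Among cultured hippocampal neurons M1S had the highest Shank2, at 1.04 CPM, and P1S the lowest Homer2, at 0.1003 CPM. M9D had 0 CPM of Lrrtm2 and 0 of Gphn, which the other cells held.

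Among F cells of the cortical slice F11 had the lowest Dlgap1, at 9.57 CPM, and the highest Dlgap3, at 0.456. F7 had the lowest Nrxn3, at 0.345 CPM, and the highest Homer3, at 0.230. F2 stood high for Nlgn1, at 365 CPM, and Shank1, at 3.43, and F1 for Nlgn3, at 25.8, and Shank2, at 1.28. The causes were not tested.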

How the results depend on the processing

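Over 14 settings, 192 of 218 counts of called members were within 1.5 times the reported count, and 916 of 1004 values of called members kept the call, 78 lost it and 10 changed sign. The cause was not tested for any change below. Percentages in parentheses are shares of all measured genes called, and a count without one is not a result about the members. For cultured cortical neurons over astrocytes, 2 members were called lower with libraries of the later bcl2fastq version only (20.6%). Without cells with at least 3 microglia markers 3 were called lower (21.7%). Leaving out 1 cell gave 11 to 14 higher and 1 to 2 lower. For slice over cultured cortical neurons, those called higher were 8 without neurons with more astrocyte markers (15.5%) and 13 by summed counts alone (19.6%). They were 10 without cells with under 1000 genes (12.4%) and 10 without cells with microglia markers (11.3%), against 8.86% of all genes with the main rule. With that bcl2fastq version only 6 were called lower, and leaving out 1 cell gave 4 to 9 and 2 to 5. For CA1 over cultured hippocampal neurons summed counts alone gave 7 higher, and leaving out 1 cell 2 to 3 higher and 11 to 13 lower. For cultured hippocampal over cortical neurons, those lower were 3 with that bcl2fastq version only, 5 by summed counts alone and 2 without titles ending in D, and leaving out 1 cell gave 10 to 14 and 1 to 3. For P over F cells summed counts alone gave 11 higher, and those lower were 6 under TMM, 7 under DESeq2, 4 with that bcl2fastq version only and 2 without cells with under 1000 genes, while leaving out 1 cell gave 4 to 7 and 1 to 5. For CA1 over slice cortex 3 were higher and 5 lower without cells with microglia markers, and leaving out 1 cell gave 5 to 8 and 8 to 10. For CA3 over CA1 leaving out 1 cell gave 4 to 7 and 6 to 8. The 10 changes of sign were, in P over F cells, Homer2 (-1.28 with that bcl2fastq version only, -0.84 without cells with microglia markers) and Ppp1ca (-0.75, the same cells left out). In CA1 over slice cortex they were, without cells with microglia markers, Dlg4 (-0.042), Shank2 (-0.32) and Camk2a (-0.72), without cells with under 1000 genes Shank2 (-0.24) and Shank3 (1.31), and without neurons with more astrocyte markers Shank3 (0.10). In CA3 over CA1 it was Homer2 (3.29, without cells with microglia markers). Rescaling moved the median log2 ratio of all genes by 0.76 (TMM) and 0.90 (DESeq2) in CA1 over cultured hippocampal neurons and by -0.29 and -0.47 in P over F cells. No paired analysis was possible because each group is 1 sample, the replicate numbers only name cells and no test was made. Leaving out cells by genes or microglia markers, and each cell of both groups, was chosen after seeing the data. Depth limits low values: at 1 of 15 CA1 cells detection could not be read at 1000000 counts.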
